A study of Mus musculus with 6 samples.

Results

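The 40 genes described here carry fatty acids from the blood into the heart muscle cell, store them as triglyceride, bring them into mitochondria and break them down by beta oxidation. They were taken from a list of names, with no threshold on a measured value, and make up 40 of the 29385 genes in the deposited tables. They fall into 5 steps: 6 genes of uptake, 6 of storage, 6 of mitochondrial entry, 17 of beta oxidation and 5 of a small group of uncoupling proteins and acyl-CoA thioesterases, called uncoupling below.

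The adult heart draws most of its energy from fatty acids. Lipoprotein lipase frees them from circulating triglyceride, CD36 and fatty acid binding protein carry them across and within the cell, and acyl-CoA synthetase activates them for storage or for the carnitine shuttle into mitochondria. There, beta oxidation removes acetyl-CoA units in cycles of dehydrogenation, hydration, oxidation and thiolysis. Many of these genes are targets of PPAR alpha, ERR and PGC-1, and failing or hypertrophied hearts are known for low expression of several of them.

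Poly-A RNA was sequenced from 6 mouse heart libraries in 3 groups of 2. The first carried the Myh6 RH/+ genotype and got vehicle, the second was Myh6 RH/RQ and also got vehicle, and the last was Myh6 RH/RQ and got AAV-hpCas13d (called treated below). Myh6 encodes the alpha myosin heavy chain, which drives contraction of adult mouse heart muscle. All 3 groups carry the RH allele of Myh6, which the labels do not spell out, so no group is wild type, and RH/RQ hearts carry the RQ allele as the other copy. AAV-hpCas13d is an adeno-associated virus that carries an RNA-cutting Cas13d enzyme. It or vehicle was given to newborn mice and hearts were taken 12 months later. The dose, the promoter that drives the enzyme, the part of the heart, the composition of the vehicle, and whether the libraries of a group came from separate animals are not given in the sources used here. The p-values therefore measure only the spread between these libraries, which may be technical. The study's title names the long-term effect of AAV-hpCas13d on the transcriptome, so each of the 3 pairs of groups was compared. Any 2 of these comparisons share a group of libraries.

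Libraries held between 36269261 and 51017058 reads, and 0 reads in a library allows up to 0.0588 to 0.0827 CPM, reads scaled to the library total. Myh6 itself, counted over both alleles, ranged from 14297 to 18251 CPM with no call in any comparison, so its total does not check the genotype labels. Both RH/RQ vehicle libraries carried Y-linked transcripts and had Xist at 0.05 and 0.27 CPM, whereas Xist lay between 265.2 and 326.0 CPM in the other 4 libraries; the genotype or treatment cannot be told apart from sex in either comparison that uses RH/RQ vehicle hearts. The treated and RH/+ vehicle libraries did not differ in this way. They differ in both genotype and treatment, which cannot be told apart in that comparison. The 8 cardiomyocyte markers summed to 51149 and 51773 CPM in RH/+ vehicle, 44367 and 44728 in RH/RQ vehicle, and 50198 and 48158 in treated hearts. Fibroblast markers summed to 930 and 993 CPM in RH/+ vehicle, 1625 and 1494 in RH/RQ vehicle, and 1573 and 1331 in treated hearts, with 4 of 6 called higher in RH/RQ vehicle and 5 of 6 in treated than in RH/+ vehicle hearts, and 2 called lower in treated against vehicle RH/RQ hearts. Macrophage markers summed to 131 and 132, 186 and 175, and 162 and 142 CPM in the same order of groups, and 4 of 6 were called higher in RH/RQ vehicle than in RH/+ vehicle hearts. The 6 endothelial markers gave no call, with sums from 817 to 978 CPM. Of 8 adipocyte markers, left after Fabp4 and Thrsp, the sum was at most 1.79 CPM in every library but RH/+ vehicle replicate 2, where it reached 15.4 CPM. In whole tissue, fewer cells of a type and less RNA per cell cannot be told apart.

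Compared per length, as CPM per kilobase of exon (RPKM), the most abundant of the 40 transcripts was Fabp3, the heart fatty acid binding protein, with a mean of 3630 RPKM over the 6 libraries (3230 to 3829). Ech1 (550.5), Lpl (528.2), Acaa2 (513.9), Acadl (498.4) and Cd36 (482.7) came next, and the ranges of these 5 over the libraries overlapped, so their order does not exceed the spread. Etfa, with 391.2 RPKM, and Acadm, with 330.1 RPKM, followed. At the low end stood Cpt1b (3.89 RPKM), Angptl4 (1.75 RPKM) and Acot1 (1.57 RPKM). Together the 40 genes took between 2.33% and 2.69% of the reads.

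The place of Cpt1b at rank 38 bears on how its counts can be read. Cpt1b is the muscle form of carnitine palmitoyltransferase 1 and is known as the main form of the adult heart, yet its mean of 3.89 RPKM lay below the 6.59 RPKM of the liver form Cpt1a. In the GENCODE M21 annotation of GRCm38, 81.4% of the exonic bases of Cpt1b also belong to Gm44502, a read-through transcript of Chkb and Cpt1b on the same strand. Etfb, one subunit of the electron transfer flavoprotein, shares 58.2% of its exonic bases with Gm45233 on the same strand and stood at 26.4 RPKM, against 391 RPKM for its partner subunit Etfa. The counting mode and strand setting are not given in the sources used here, reads of overlapping genes may go to neither or to the neighbour, and the part of this in the levels of both genes was not tested. Levels of Gm44502 and Gm45233 were not analysed here. Acadvl (42.9%, with Dvl2 on the opposite strand, itself at 7.55 to 11.5 CPM), Fabp3 (19.6%) and Lipe (15.6%) are the other members with at least 10% of their exonic bases shared, and 28 of the 40 share none. The plot of transcript level against shared bases places Cpt1b and Etfb far to the right.

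**Figure D1:**
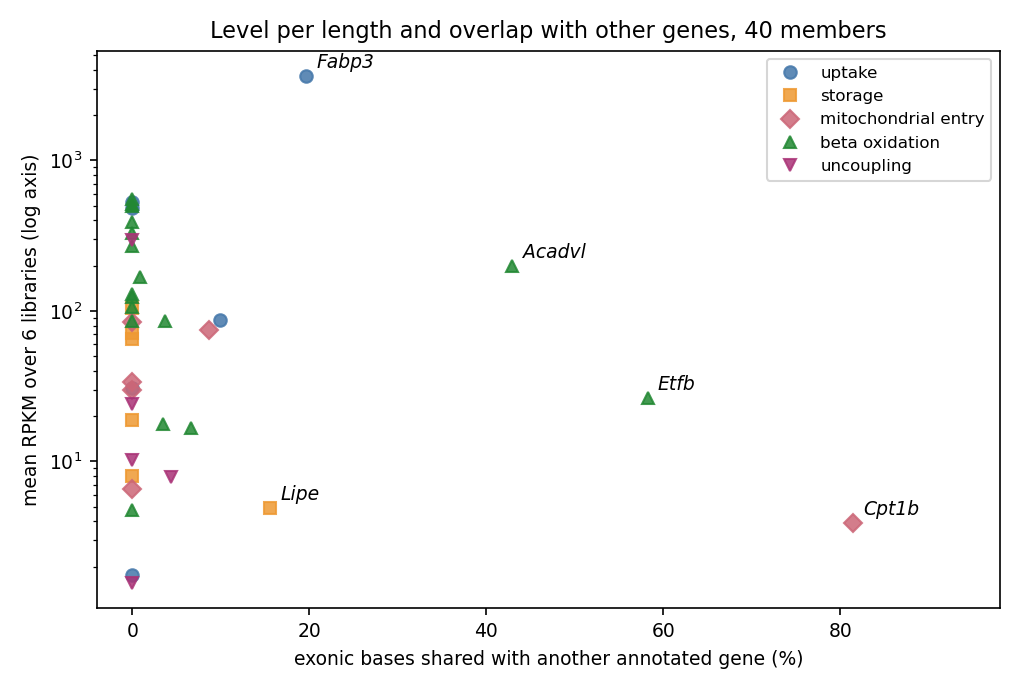
Mean level of each of the 40 genes over 6 libraries (RPKM, log axis) against the percentage of its exonic bases that another annotated gene also covers. Cpt1b, with 81.4% shared, and Etfb, with 58.2% shared, stand at 3.89 and 26.4 RPKM.

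All 40 genes passed the filter on low counts. Of these, 6 were called in at least 1 comparison, at an adjusted p under 0.05 by limma over the 16804 genes tested, and 34 in none. In RH/RQ vehicle against RH/+ vehicle hearts, Angptl4 and Ucp3 rose and Dgat2 and Ech1 fell. These were 2 of 40 higher beside a background of 3.48% of all genes tested, and 2 of 40 lower beside 1.51%. In treated against vehicle RH/RQ hearts, 0 of 40 were called higher beside a background of 1.22%, and Ucp3 alone fell, 1 of 40 beside 0.827%. At an unadjusted p under 0.05, limma gave 2 of 40 higher and 4 of 40 lower in that comparison. Over the 16804 genes tested it gave 1438 higher and 658 lower. In treated RH/RQ against RH/+ vehicle hearts, Cpt1b was called higher, 1 of 40 beside 2.33%, and Decr1 lower, 1 of 40 beside 0.53%. Counts of 0 to 2 of 40 are too few to be read against these shares.

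The share of all calls that were higher depended on the scaling, and it crossed 50% only in treated against vehicle RH/RQ hearts. In RH/RQ vehicle against RH/+ vehicle hearts 69.8% of all calls were higher with the library-total scaling used here, 56.6% with TMM scaling, 55.8% with RLE, 57.1% in the edgeR fit, 51.8% in the DESeq2 fit and 76.8% with CPM taken over nuclear genes. In treated against vehicle RH/RQ hearts the shares in that order were 59.6%, 46.7%, 47.0%, 47.5%, 47.6% and 44.8%. In treated RH/RQ against RH/+ vehicle hearts they were 81.5%, 59.1%, 58.9%, 60.3%, 55.8% and 77.2%. No scaling moved the median of all genes by more than 0.1 on the log2 scale.

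**Figure D2:**
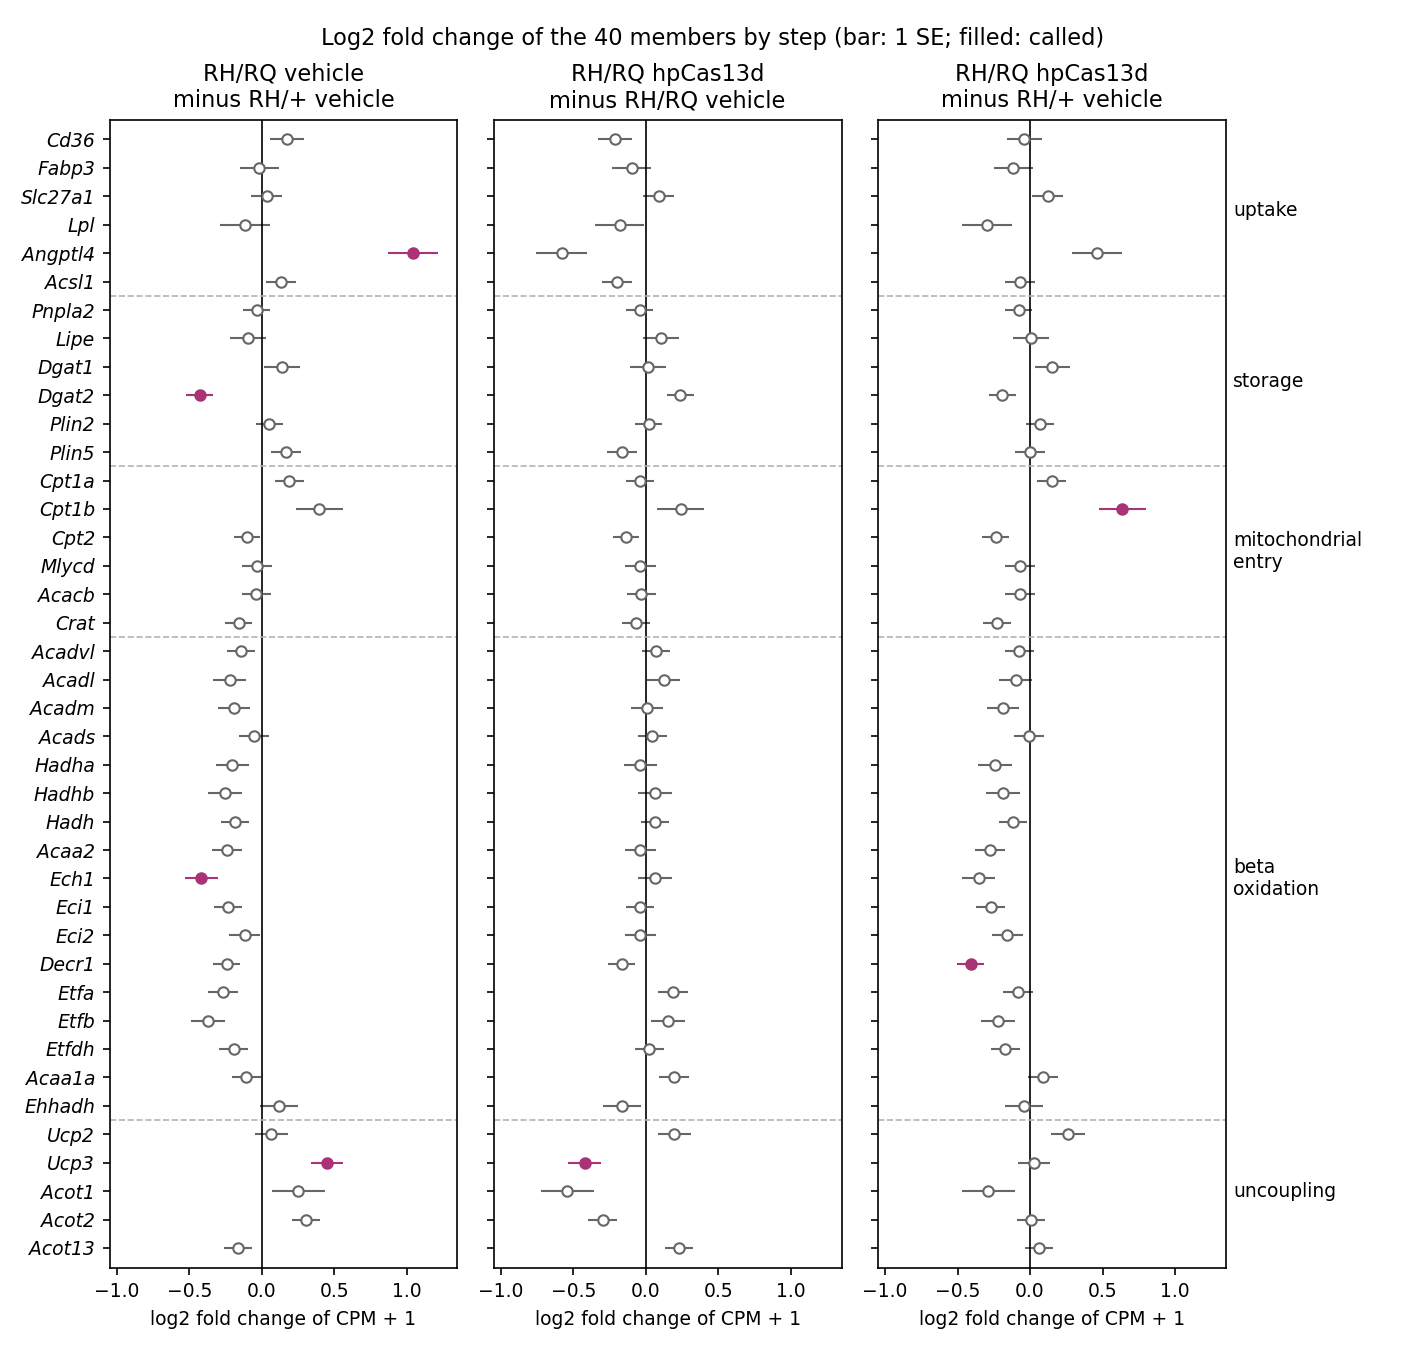
Log2 fold change of each of the 40 genes, on the log2(CPM + 1) scale, in the 3 comparisons, grouped by step, with bars of 1 SE from limma and filled points for an adjusted p under 0.05. In RH/RQ vehicle against RH/+ vehicle hearts 16 of the 17 beta-oxidation genes lie below 0.

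Uptake began with lipoprotein lipase and its inhibitor. Angptl4, a secreted inhibitor of lipoprotein lipase and a PPAR target (GRCm38 chr17:33773750-33781830, minus strand), stood at 3.91 and 3.78 CPM in RH/+ vehicle, 9.84 and 8.20 in RH/RQ vehicle, and 6.62 and 4.85 in treated hearts. The 3 groups did not overlap, with RH/RQ vehicle highest and treated hearts between. Against RH/+ vehicle, Angptl4 rose in RH/RQ vehicle hearts by 1.04 on the log2 scale (SE 0.17, limma adjusted p = 0.000514), the largest fold change of the 40 genes in that comparison. Treated hearts differed from RH/RQ vehicle by -0.58 (SE 0.17, limma adjusted p = 0.098) and from RH/+ vehicle by 0.46 (SE 0.17, limma adjusted p = 0.187), and neither was called. These are low levels on a log2(CPM + 1) scale, which understates fold changes of low genes.

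Lpl, the lipase that Angptl4 acts on, stood at 5484 and 6652 CPM in RH/+ vehicle, 4968 and 6245 in RH/RQ vehicle, and 4540 and 5316 in treated hearts. RH/RQ vehicle libraries overlapped with both other groups, while both treated libraries lay below both RH/+ vehicle libraries. Its fold changes were -0.12, -0.18 and -0.30 on the log2 scale in the 3 comparisons, in the order of the calls above, with limma adjusted p of 0.799, 0.732 and 0.433. Fabp3 stood at 3151 and 3003 CPM in RH/+ vehicle, 3061 and 3015 in RH/RQ vehicle, and 3034 and 2659 in treated hearts, with overlapping groups and treated replicate 2 lowest. The fatty acid translocase Cd36, the transporter Slc27a1 and the long-chain acyl-CoA synthetase Acsl1 had fold changes of 0.17, 0.03 and 0.13 in RH/RQ vehicle against RH/+ vehicle hearts, none called. Cd36, at 1974 and 1809 CPM in RH/RQ vehicle hearts, lay above both RH/+ vehicle libraries (1741 and 1611) and both treated libraries (1558 and 1705), as did Acsl1 (959 and 998 against 877 and 910, and 819 and 884). The median of the 6 uptake genes was 0.08, -0.19 and -0.05 in the 3 comparisons, beside 0.04, 0.04 and 0.08 over all genes tested.

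**Figure D3:**
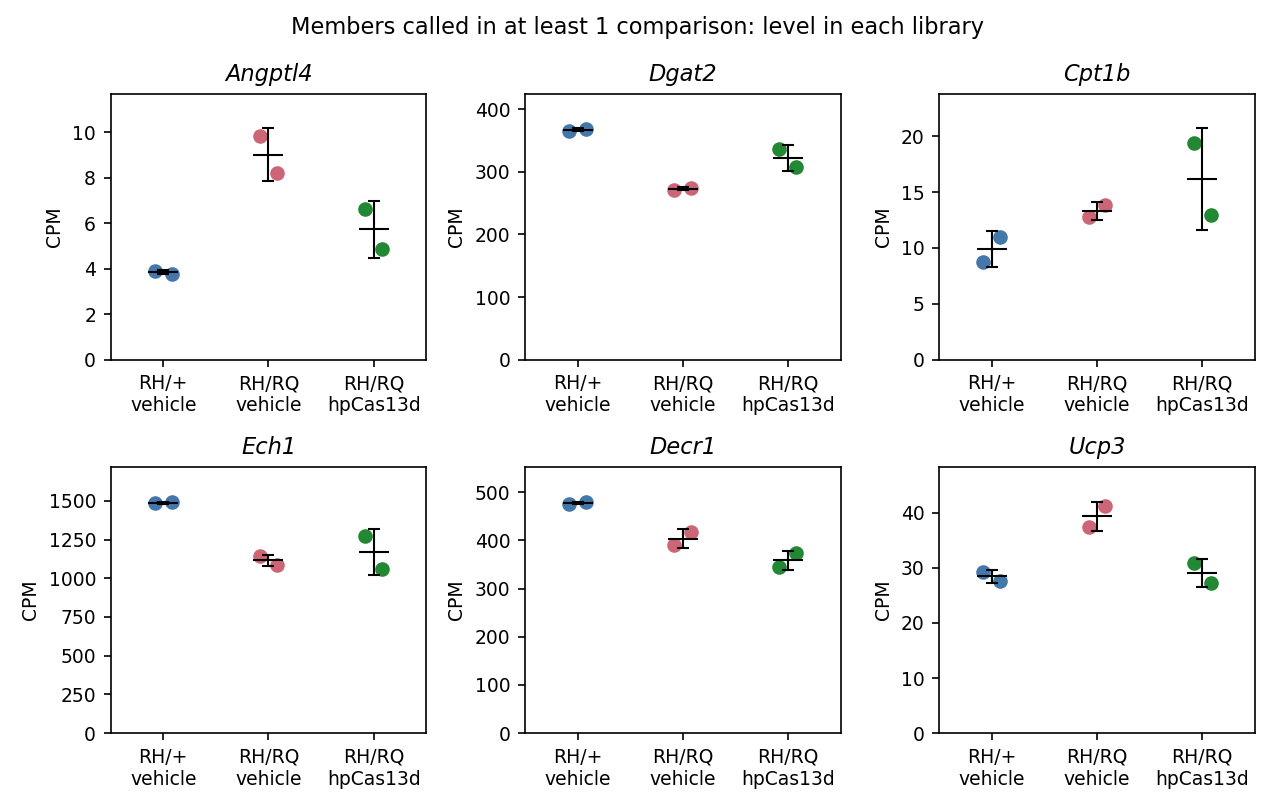
CPM of the 6 genes called in at least 1 comparison, with a point per library, a line at the group mean and bars of 1 SD (n = 2). Angptl4 and Ucp3 are highest in RH/RQ vehicle hearts, Dgat2 is lowest there, and Ech1 and Decr1 are highest in RH/+ vehicle hearts.

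Among the storage genes, which build triglyceride, coat lipid droplets or release fatty acids from them, only Dgat2 was called. Dgat2 makes triglyceride from diacylglycerol (GRCm38 chr7:99153658-99182719, minus strand). It stood at 365 and 369 CPM in RH/+ vehicle, 271 and 274 in RH/RQ vehicle, and 336 and 307 in treated hearts. The groups did not overlap, the libraries of each vehicle group lay close together, and treated hearts lay between the vehicle groups. Dgat2 fell in RH/RQ vehicle against RH/+ vehicle hearts by 0.43 on the log2 scale (SE 0.09, limma adjusted p = 0.00582). Without any 1 of these 4 libraries the call was lost (adjusted p from 0.0628 to 0.0756). The differences of treated hearts, 0.24 from RH/RQ vehicle (limma adjusted p = 0.257) and -0.19 from RH/+ vehicle (limma adjusted p = 0.328), were not called. Without Fabp4 and Thrsp, the adipocyte markers summed to 1.79 and 15.4 CPM in RH/+ vehicle and 0.333 and 0.052 in RH/RQ vehicle hearts. With both included the sums were 564 and 490 CPM in RH/+ vehicle and 600 and 461 in RH/RQ vehicle hearts, so these sums overlapped. Most of each sum was Fabp4, at 535 and 448 CPM in RH/+ vehicle and 581 and 445 in RH/RQ vehicle hearts. Of the 5 adipocyte markers tested, 4 were called lower in RH/RQ vehicle than in RH/+ vehicle hearts, beside 1.51% of all genes, and 0 higher. Thrsp, 1 of the 4, was called higher in treated against vehicle RH/RQ hearts. The part of these markers in the result was not tested.

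Dgat1, which catalyses the same reaction, ranged from 20.6 to 26.6 CPM with a fold change of 0.14 in RH/RQ vehicle against RH/+ vehicle hearts. Pnpla2, the adipose triglyceride lipase, stood at 210 and 236 CPM in RH/+ vehicle, 215 and 220 in RH/RQ vehicle, and 219 and 203 in treated hearts. Its groups overlapped, and its fold changes of -0.03, -0.04 and -0.08 had limma adjusted p of 0.909, 0.905 and 0.749. The droplet coat proteins Plin2 (64.5 to 69.2 CPM) and Plin5 (116 to 145 CPM) and the hormone-sensitive lipase Lipe (26.4 to 33.0 CPM) also gave no call. Plin2 was the steadiest of these, with fold changes of at most 0.07 in any comparison. The median of the 6 storage genes was 0.01, 0.02 and 0.00 in the 3 comparisons, and -0.04, -0.04 and -0.10 under TMM scaling.

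Mitochondrial entry covers the carnitine shuttle and its control by malonyl-CoA. Cpt1b (GRCm38 chr15:89416405-89425863, minus strand) stood at 8.77 and 11.0 CPM in RH/+ vehicle, 12.7 and 13.8 in RH/RQ vehicle, and 19.4 and 13.0 in treated hearts. The treated libraries differed from each other by more than the RH/RQ and RH/+ vehicle libraries did, and both lay above both RH/+ vehicle libraries. Cpt1b was called higher in treated RH/RQ than in RH/+ vehicle hearts by 0.64 on the log2 scale (SE 0.16, limma adjusted p = 0.0329). Without treated replicate 1 or without RH/+ vehicle replicate 1 the call was lost, and it was lost under TMM, RLE and DESeq2 scaling; over all alternatives the adjusted p reached 0.404. With 81.4% of its exonic bases shared with another gene, the Cpt1b value is uncertain. Its differences in the comparisons with RH/RQ vehicle hearts, 0.40 (RH/RQ against RH/+ vehicle) and 0.24 (treated against vehicle), were not called. Cpt1a ranged from 44.9 to 53.3 CPM and was not called, with 0.19, -0.04 and 0.15 on the log2 scale.

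Cpt2, the inner-membrane partner of the shuttle, stood at 216 and 222 CPM in RH/+ vehicle, 199 and 210 in RH/RQ vehicle, and 192 and 179 in treated hearts. Its 3 groups did not overlap and stepped down in that order, but no difference was called, the largest being -0.24 in treated RH/RQ against RH/+ vehicle hearts (limma adjusted p = 0.19). Crat, the mitochondrial carnitine acetyltransferase, stood at 421 and 460 CPM in RH/+ vehicle, 381 and 406 in RH/RQ vehicle, and 392 and 361 in treated hearts. Both groups of RH/RQ hearts lay below RH/+ vehicle and overlapped each other, and the fold changes of -0.16 and -0.23 against RH/+ vehicle were not called (limma adjusted p = 0.423 and 0.252). Acacb, which makes malonyl-CoA, and Mlycd, which removes it, had fold changes between -0.07 and -0.03 in all 3 comparisons. The median of the 6 genes was -0.04, -0.04 and -0.07.

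Most beta-oxidation genes lay below 0 in both comparisons with RH/+ vehicle hearts. In RH/RQ vehicle against RH/+ vehicle hearts 16 of the 17 genes had a fold change below 0, the median was -0.20 beside 0.04 over all genes, and the range ran from -0.42 (Ech1) to 0.12 (Ehhadh). In 12 of the 17 both RH/RQ vehicle libraries lay below both RH/+ vehicle libraries, and over all genes tested this share was 18.5%. In 1 of 17 both lay above, beside 30.8%. The count of 16 below 0 was the same under TMM, RLE and nuclear-gene scaling and in the edgeR and DESeq2 fits. Only Ech1 passed the test across all genes. At an unadjusted p under 0.05, limma gave 7 of the 17 lower and 0 higher. Over the 16804 genes tested, 971 were lower and 1897 higher at that threshold. Cardiomyocyte markers moved in the same direction, with 7 of 8 below 0, a median of -0.19 and 0 called, and all 6 fibroblast markers lay above 0 with a median of 0.57; the part of either in the result was not tested.

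Summed over the 17 genes, beta oxidation took 12518 and 12197 CPM in RH/+ vehicle, 10600 and 10375 in RH/RQ vehicle, and 11071 and 10449 in treated hearts. Both groups of RH/RQ hearts lay below RH/+ vehicle, and they overlapped each other. As a percentage of the summed cardiomyocyte markers, a measure chosen after the values were seen, the same sums were 24.5% and 23.6% in RH/+ vehicle, 23.9% and 23.2% in RH/RQ vehicle, and 22.1% and 21.7% in treated hearts. On this measure the RH/+ and RH/RQ vehicle libraries overlapped, and both treated libraries lay below them.

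**Figure D4:**
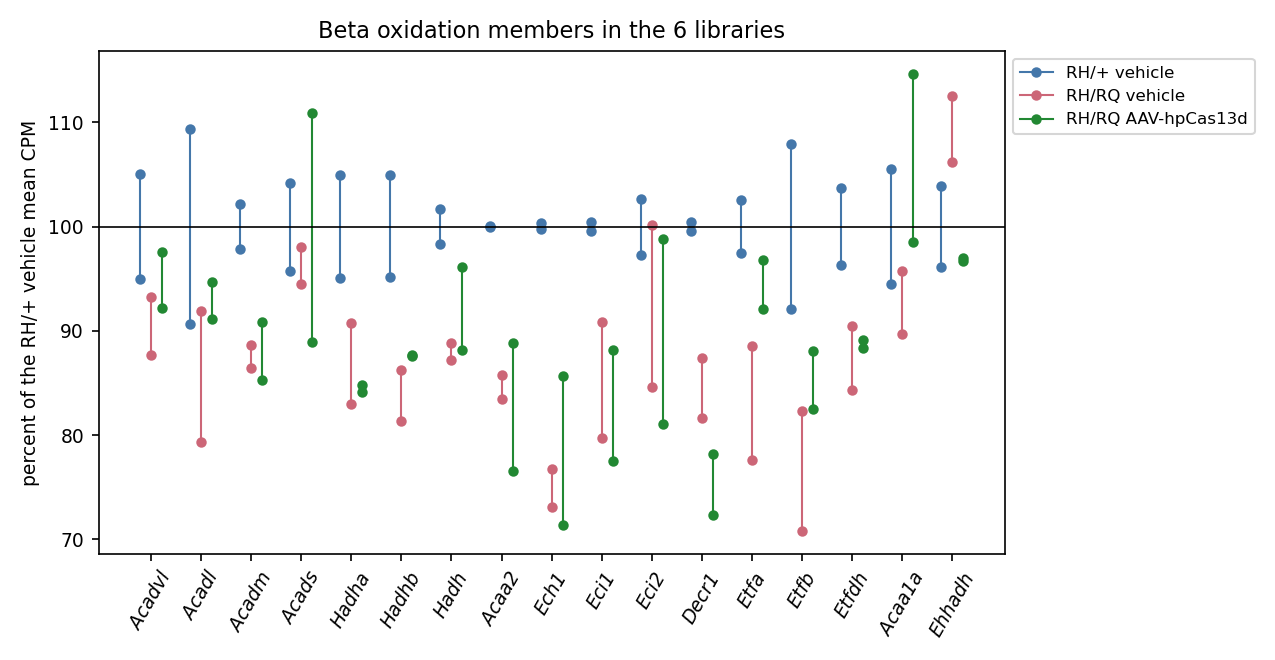
Level of each of the 17 beta-oxidation genes in all 6 libraries, as a percentage of the mean CPM of the RH/+ vehicle libraries (axis not from 0), with a point per library and a line joining the libraries of a group. For 12 genes both RH/RQ vehicle libraries lie below both RH/+ vehicle libraries, and for 11 genes both treated libraries do.

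Ech1, a dienoyl-CoA isomerase that acts on unsaturated fatty acids (GRCm38 chr7:28825217-28832247, plus strand), stood at 1484 and 1493 CPM in RH/+ vehicle, 1142 and 1088 in RH/RQ vehicle, and 1275 and 1062 in treated hearts. Both groups of RH/RQ hearts lay below RH/+ vehicle, and the treated libraries spanned the RH/RQ vehicle libraries. Ech1 fell in RH/RQ vehicle against RH/+ vehicle hearts by 0.42 on the log2 scale (SE 0.12, limma adjusted p = 0.0356), and without any 1 of those 4 libraries the call was lost (adjusted p from 0.16 to 0.286). Treated hearts differed by 0.06 from RH/RQ vehicle (limma adjusted p = 0.886) and by -0.35 from RH/+ vehicle (limma adjusted p = 0.111, and 0.0182 without treated replicate 1). Decr1, the 2,4-dienoyl-CoA reductase that also serves unsaturated fatty acids (GRCm38 chr4:15917240-15945507, minus strand), stood at 475 and 480 CPM in RH/+ vehicle, 390 and 417 in RH/RQ vehicle, and 345 and 373 in treated hearts. The 3 groups did not overlap and treated hearts were lowest. Decr1 fell in treated RH/RQ against RH/+ vehicle hearts by 0.41 on the log2 scale (SE 0.09, limma adjusted p = 0.0159), with -0.24 in RH/RQ vehicle against RH/+ vehicle (limma adjusted p = 0.164) and -0.17 in treated against vehicle RH/RQ hearts (limma adjusted p = 0.499). Its call was lost without either RH/+ vehicle library or treated replicate 1, with an adjusted p of up to 0.172.

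The remaining isomerases Eci1 and Eci2 had fold changes of -0.23 and -0.12 in RH/RQ vehicle against RH/+ vehicle hearts. Acaa2, the mitochondrial thiolase that releases acetyl-CoA, stood at 874 and 875 CPM in RH/+ vehicle, 730 and 750 in RH/RQ vehicle, and 777 and 669 in treated hearts. The vehicle groups did not overlap, and its fold changes of -0.24, -0.04 and -0.28 were not called (limma adjusted p = 0.228, 0.929 and 0.182). The peroxisomal thiolase Acaa1a had -0.11 and the peroxisomal bifunctional enzyme Ehhadh 0.12 in RH/RQ vehicle against RH/+ vehicle hearts, and per length they were the least abundant of the step.

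The acyl-CoA dehydrogenases, which take the first step of each cycle for chains of different length, had fold changes of -0.14 (Acadvl, very long), -0.22 (Acadl, long), -0.19 (Acadm, medium) and -0.05 (Acads, short) in RH/RQ vehicle against RH/+ vehicle hearts. Acadm was at 1436 and 1376 CPM in RH/+ vehicle and 1246 and 1216 in RH/RQ vehicle hearts, with no overlap. The trifunctional protein subunits Hadha and Hadhb had -0.20 and -0.25, and the short-chain hydroxyacyl-CoA dehydrogenase Hadh had -0.18. Hadhb, at 2067 and 1874 CPM in RH/+ vehicle, was at 1700 and 1602 CPM in RH/RQ vehicle and 1727 and 1726 CPM in treated hearts, so both RH/RQ groups lay below. The electron transfer flavoprotein subunits Etfa and Etfb, which pass electrons from the dehydrogenases to the respiratory chain, had -0.27 and -0.37, and their acceptor Etfdh had -0.19. Etfb, with a limma adjusted p of 0.0687, passed the threshold under 8 of the 17 alternative settings.

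In treated RH/RQ against RH/+ vehicle hearts the picture of beta oxidation was close to this in count. A fold change below 0 was found for 16 of the 17 genes, with a median of -0.17 beside 0.08 over all genes, and both treated libraries lay below both RH/+ vehicle libraries for 11 of 17, beside 9.66% of all genes. Both lay above for 0 of 17, beside 35.0%. Of the 8 cardiomyocyte markers 5 were below 0 here, with a median of -0.06 and 0 called, and all 6 fibroblast markers were above 0, with a median of 0.50 and 5 called; the part of either in the result was not tested. This comparison uses the same RH/+ vehicle libraries as the one before, so its counts are not separate evidence. In treated against vehicle RH/RQ hearts 11 of 17 were above 0 with a median of 0.05, beside 0.04 over all genes. That direction flips with the scaling: 6 genes were below 0 with library totals and 9 to 10 under TMM, RLE and nuclear-gene scaling and in the count fits. Both treated libraries lay above both RH/RQ vehicle libraries for 4 of 17, beside 26.2% of all genes, and below for 2 of 17, beside 14.4%. No beta-oxidation gene was called between treated and vehicle RH/RQ hearts.

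The authors' deposited table for RH/RQ vehicle against RH/+ vehicle hearts, a DESeq2 fit of those 4 libraries per the file headers, gave more members at an adjusted p under 0.05. There, 2 members were higher and 10 lower in the authors' deposited table, of which 9 belong to beta oxidation: Acadm, Hadhb, Hadh, Acaa2, Ech1, Decr1, Etfa, Etfb and Etfdh. Over all genes, 1036 of the 15106 with an adjusted p passed in that table. The authors' deposited table for treated against vehicle RH/RQ hearts held Ucp3 as the 1 member, lower, beside 265 of 15650 genes. For treated RH/RQ against RH/+ vehicle hearts the authors' deposited table held 0 members higher and 10 lower (Lpl, Dgat2, Cpt2, Crat, Acadm, Hadha, Acaa2, Ech1, Eci1 and Decr1), and Cpt1b was not among them. Over all genes, 347 of 15968 passed there. A DESeq2 fit of all 6 libraries on the recovered reads gave 6 members lower in RH/RQ vehicle and 11 lower in treated hearts, each against RH/+ vehicle. Over the 16804 genes kept, that fit called 457 and 196 lower. The number of beta-oxidation genes that pass therefore depends on the tool, while the count below 0 against RH/+ vehicle was 16 or 17 of 17 in all fits with other scalings or tools.

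The uncoupling proteins gave the only member called in both comparisons with RH/RQ vehicle hearts. Ucp3, a mitochondrial inner-membrane carrier of heart and skeletal muscle that is known to respond to fatty acids (GRCm38 chr7:100472990-100486432, plus strand), stood at 29.3 and 27.7 CPM in RH/+ vehicle, 37.4 and 41.2 in RH/RQ vehicle, and 30.9 and 27.3 in treated hearts. Both RH/RQ vehicle libraries lay above all the others, and treated libraries spanned the RH/+ vehicle libraries. Ucp3 rose in RH/RQ vehicle against RH/+ vehicle hearts by 0.45 on the log2 scale (SE 0.11, limma adjusted p = 0.0166). It fell in treated against vehicle RH/RQ hearts by 0.42 (SE 0.11, limma adjusted p = 0.0472). Treated RH/RQ and RH/+ vehicle hearts differed by 0.03 (SE 0.11, limma adjusted p = 0.942). The call against treated hearts was lost without any 1 library other than treated replicate 1, and the call against RH/+ vehicle without either RH/+ vehicle library or RH/RQ vehicle replicate 2, with adjusted p of up to 0.493 and 0.193. The comparisons share the RH/RQ vehicle libraries, which also differ from the rest in sex-linked transcripts.

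Ucp2, the widely expressed neighbour of Ucp3 on the same chromosome, stood at 46.1 and 56.0 CPM in RH/+ vehicle, 59.3 and 47.8 in RH/RQ vehicle, and 63.0 and 59.3 in treated hearts. The vehicle groups overlapped, and the fold changes of 0.07, 0.20 and 0.26 were not called. Acot2, a mitochondrial acyl-CoA thioesterase, stood at 47.7 and 49.7 CPM in RH/+ vehicle, 61.4 and 59.2 in RH/RQ vehicle, and 50.1 and 47.7 in treated hearts. As for Ucp3, both RH/RQ vehicle libraries lay above all others, but the fold changes of 0.30 (limma adjusted p = 0.0776) and -0.30 (limma adjusted p = 0.144) were not called. Acot1, its cytosolic paralogue, was at 3.88 to 8.45 CPM, and 13.6% of the stretches of 50 bases in its transcripts also occur in those of Acot2. Of the stretches of 50 bases in Acot2 transcripts, 24.5% occur in those of Acot1, so reads of the pair can be split uncertainly. Acot13, another mitochondrial thioesterase, stood at 235 and 212 CPM in RH/+ vehicle, 208 and 190 in RH/RQ vehicle, and 247 and 220 in treated hearts. Its RH/RQ vehicle libraries were the lowest, the opposite order to Ucp3 and Acot2, and no difference was called. The median of the 5 genes was 0.25, -0.30 and 0.03 in the 3 comparisons, and the last was -0.08 under TMM scaling.

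Of the genes called, Ucp3 and Ech1 had a promoter in the RefSeq table of GRCm38.p6, which gives 300 bases around each start, most of them before it. They are shown because they moved in opposite directions in RH/RQ vehicle hearts, with Ucp2 beside them as the neighbour of Ucp3 that was not called. Capitals mark AGGTCA, the core motif bound by PPAR, ERR and other nuclear receptors, searched on both strands. The windows are chr7:100472741-100473040 (Ucp3), chr7:100493108-100493407 (Ucp2) and chr7:28825088-28825387 (Ech1), all on the plus strand.
Ucp3: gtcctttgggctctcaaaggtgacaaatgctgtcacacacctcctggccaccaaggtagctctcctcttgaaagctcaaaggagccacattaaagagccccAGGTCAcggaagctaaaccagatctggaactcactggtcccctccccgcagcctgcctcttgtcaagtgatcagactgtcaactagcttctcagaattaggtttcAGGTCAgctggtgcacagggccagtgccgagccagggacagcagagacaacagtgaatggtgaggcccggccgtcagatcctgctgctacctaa
Ucp2: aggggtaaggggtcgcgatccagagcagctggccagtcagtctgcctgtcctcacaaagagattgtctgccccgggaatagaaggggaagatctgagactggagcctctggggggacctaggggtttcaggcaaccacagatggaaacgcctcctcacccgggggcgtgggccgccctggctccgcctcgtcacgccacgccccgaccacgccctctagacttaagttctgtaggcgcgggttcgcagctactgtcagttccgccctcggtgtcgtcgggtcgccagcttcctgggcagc
Ech1: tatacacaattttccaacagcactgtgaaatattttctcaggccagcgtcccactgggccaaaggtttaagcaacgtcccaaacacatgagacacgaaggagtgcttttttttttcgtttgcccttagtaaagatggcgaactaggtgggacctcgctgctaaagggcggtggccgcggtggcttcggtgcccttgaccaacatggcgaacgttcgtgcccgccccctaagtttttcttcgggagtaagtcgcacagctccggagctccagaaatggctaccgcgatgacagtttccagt

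The Ucp3 window holds AGGTCA on its own strand at 149 and 44 bases before the start, and the Ucp2 and Ech1 windows hold none. Over the 31 members with an entry, AGGTCA was found in 9 of 36 promoters (Acacb, Acadm, Acadvl, Cd36, Cpt1a, Plin2, Plin5 and Ucp3), and 16.3% of the 32851 promoters in the table hold it. A pair of AGGTCA motifs in the same direction with 1 base between, the PPAR and RXR element, was in 0 of 36 and in 0.0396% of all promoters. TNAAGGTCA, the ERR element, which contains AGGTCA, was in 0 of 36 and in 1.28% of all. A match describes these letters only.

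A list of 95 other genes of the same pathways and their regulators was measured beside the 40, and 88 were tested. In RH/RQ vehicle against RH/+ vehicle hearts G0s2 and Pdk4 rose, 2 of the 88 beside 3.48% of all genes tested. Those that fell included Plin1, Acad12, Abcd2, Ppargc1a and Klf15, beside 1.51% of all genes tested. The median over the 88 was -0.05, beside 0.04 over all genes. Of the 24 other beta-oxidation genes, 21 were below 0 and 3 above, with a median of -0.13. Over the 16804 genes tested, 7089 were below 0. The same 24 had 13 below 0 and 11 above in treated RH/RQ against RH/+ vehicle hearts (median -0.03). All 16804 genes had 5092 below 0 there (median 0.08). These 24 had 6 below 0 and 18 above in treated against vehicle RH/RQ hearts (median 0.09), and all 16804 genes had 6629 below 0 (median 0.04). In treated against vehicle RH/RQ hearts Cideb, Acad12 and Klf15 rose, 3 of the 88 beside 1.22% of all genes. G0s2 and Pdk4 fell there, 2 of the 88 beside 0.827%. Against RH/+ vehicle, Pdk4 was higher in treated RH/RQ hearts, 1 of the 88 beside 2.33%.

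Pdk4, the kinase that switches off pyruvate dehydrogenase when fatty acids are burned, was at 147.4 ± 2.07 CPM (SD, n = 2) in RH/+ vehicle, 469.4 ± 12.5 in RH/RQ vehicle and 227.8 ± 21.5 in treated hearts. It stood highest in the same group as Angptl4 and Ucp3. Klf15, a transcription factor of cardiac lipid and amino acid use, ran the other way, at 41.4 ± 1.26, 23.96 ± 1.01 and 47.5 ± 8.5 CPM (SD, n = 2). It fell in RH/RQ vehicle hearts by 0.76 (log2, limma adjusted p = 0.000186) and rose in treated against vehicle RH/RQ hearts by 0.95 (limma adjusted p = 2.45e-05). Ppargc1a, the coactivator PGC-1 alpha, was at 126.6 ± 8.99, 94.1 ± 0.213 and 121.4 ± 15.8 CPM (SD, n = 2), and fell in RH/RQ vehicle hearts by 0.42 (limma adjusted p = 0.0127). Treated against vehicle it differed by 0.36 (limma adjusted p = 0.0667). G0s2, an inhibitor of the lipase Pnpla2, was at 67.1 ± 2.87, 92.5 ± 8.60 and 63.7 ± 12.8 CPM (SD, n = 2), highest in RH/RQ vehicle hearts. Plin1, a droplet coat protein of adipocytes, was at 0.26 and 1.10 CPM in RH/+ vehicle hearts and at most 0.06 CPM elsewhere, highest in the library with the adipocyte markers, and the part of that library in its call was not tested.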

How the data were processed

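RNA of 6 mouse heart libraries was sequenced after poly-A capture, per the labels' protocols. The submitters' processing notes name the mm10 build with HISAT2, HTSeq and DESeq2, while versions, counting mode, strand setting and annotation are not given in the sources used here. The authors deposited 3 full tables of counts scaled to the library total (CPM) with a mean signal for each gene, a log2 fold change with its SE, a test score and p-values from DESeq2, per the file headers. All CPM values were whole multiples of 1 read (100% of values, tolerance 0.001), so reads were recovered, and 0 value columns were left unmatched to a sample.

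Genes were kept by filterByExpr (minimum count 10, 16804 of 29385) and tested with limma 3.58.1 with a trend on log2(CPM + 1), library-total scaling, all 6 libraries and 3 group means, in R 4.3.3. The two-sided p-values were adjusted over all genes by Benjamini-Hochberg and called under 0.05. Scripts were tested on simulated data. edgeR 4.0.16, DESeq2 1.42.0, other scalings, filters, pseudocounts and left-out libraries were alternatives. The mean chi-square between the libraries of a group was 12.4, 16.6 and 23.7 per gene, so no pair differed by read sampling alone. The value cannot tell separate animals from repeat libraries of 1 animal, or exclude differences added between runs of 1 library.

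RPKM and exon overlaps used GENCODE M21 gene models of GRCm38, and promoters RefSeq on GRCm38.p6. A planned comparison of paralogous proteins was replaced by shared stretches of 50 bases in transcripts. Values per library are given for members called in any comparison and for the 2 members per step with the highest RPKM; other members are given by ranges, counts or a few values. Of the other pathway genes, 2 of 95 symbols (Hadhsc and Them5) were not matched, those called are named, and the 3 of them with the smallest p per comparison have values, except for 1 gene that is not reported here. The members and lists were chosen with earlier results of these data known.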

Additional observations from a re-analysis of the deposited data

How the results depend on the processing

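No called gene changed sign under any alternative. In RH/RQ vehicle against RH/+ vehicle hearts, members called lower numbered 6 with DESeq2 and 4 with the replicate block, and without a filter on low counts 0 members were called higher, 0 lower and 57 genes in all. The median of the members moved from -0.10 to -0.15 with edgeR, -0.153 with DESeq2, -0.145 with TMM, -0.148 with RLE and -0.0667 over nuclear genes. In treated against vehicle RH/RQ hearts, 3 members were lower (Angptl4, Ucp3 and Acot2) with edgeR, DESeq2, TMM, RLE and nuclear-gene CPM, 2 with the replicate block, and 0 without a filter, with a pseudocount of 5 or with only the 4 libraries compared. All genes called numbered 15 without a filter and 567 with the block. In treated RH/RQ against RH/+ vehicle hearts, 0 members were higher with DESeq2, TMM, RLE, no filter or a pseudocount of 5, and members lower numbered 2 with edgeR, 11 with DESeq2, 0 without a filter and 2 with the block. Without a filter 7 genes were called in all. The median of the members moved from -0.08 to -0.184 with edgeR, -0.187 with DESeq2, -0.182 with TMM and -0.185 with RLE. In the same fits and order the median of all genes moved from 0.084 to -0.0005, -0.003, -0.002 and -0.004. The cause was not tested.

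Leaving out 1 library at a time gave, in the first comparison, 1 to 3 members higher, 0 to 3 lower, 343 to 1156 genes and medians from -0.116 to -0.01. The second gave 0 higher, 0 to 1 lower, 134 to 613 genes and -0.0687 to 0.0519 (main value -0.03, above 0 without treated replicate 2, at 0.0519, or RH/RQ vehicle replicate 2, at 0.00832), and the third 0 to 1 higher, 0 to 1 lower, 172 to 703 genes and -0.154 to -0.0413. Where 1 library of a group remained, it was assumed to vary like the others. Dgat2 lost its call without a filter (adjusted p = 0.12), and Angptl4 kept it in every setting but the one without a filter. Libraries were numbered by the first digit of their names, 6 or 7, and deviations of same-numbered libraries correlated at 0.13, -0.02 and 0.07. With the replicate block, all genes called numbered 1173 beside 838 in the first comparison and 567 beside 344 in the second. Whether same-numbered libraries share an effect was not tested further. The least abundant members, Acot1 and Angptl4, lay above the limit of 3 reads (at most 0.0827 CPM) in every library.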
